A study of Mus musculus with 24 samples.

Results

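Ion channel genes were followed in the developing mouse lens: the potassium channel genes (Kcn), the voltage-gated calcium channel genes (Cacn), the chloride channel genes (Clcn, Clic, Ano), the transient receptor potential genes (Trpc, Trpm), the mechanosensitive Piezo genes and the voltage-gated sodium channel genes (Scn). Members were matched by gene symbol, with no cutoff on a measured value, and 71 of the 12611 genes in the count table matched. The choice was made with earlier results of these data known. Families, too, were set by symbol and not by function. The 71 include Trpc4ap, which encodes a protein that binds a TRPC channel and not a channel. All 71 passed the filter on low counts, and 64 reached a group mean of at least 5 CPM (the read count of a gene after scaling of every library to a common size) in at least 1 group. Total RNA was sequenced from lens fiber and lens epithelium that were microdissected from mice of the outbred CD1 stock, without any genetic change or drug. The groups were fiber and epithelium at 4 stages each, embryonic days E14.5 and E16.5, then E18.5, then postnatal day P0.5, with 3 biological replicates each and 24 libraries in all. Whether a replicate pools several animals, and whether fiber and epithelium replicates with the same number share animals, is not stated in the labels.

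The lens has no blood supply of its own after its embryonic capillary net regresses, and ions and water are thought to circulate through it. The epithelium is a layer of dividing cells on the front surface that holds most of the sodium-potassium pump activity, and fibers are its elongated descendants, joined by gap junctions, that lose their organelles. Potassium channels hold the membrane potential, chloride channels and exchangers set cell volume and the acidity of endosomes, and calcium must stay low in fibers, since its overload is a known route to cataract. TRP and Piezo channels carry cations in response to stretch, lipids or calcium, and inherited variants of human TRPM3 are known to cause cataract.

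Fiber libraries held 13010174 to 21617737 counts and epithelium libraries 7658794 to 11819117. The 16 crystallin genes took 23.3% to 43.9% of fiber counts and 1.66% to 4.28% of epithelium counts, so levels are given as CPM after TMM scaling, which sets them relative to the bulk of genes. All 10 fiber markers were higher in fiber and all 8 epithelium markers lower. Markers of other tissues were also lower in fiber, among them all 10 for endothelium (summed level 21.8 to 45.1 CPM in fiber libraries and 265 to 500 CPM in epithelium libraries), all 7 measured for mural cells of vessels (30.3 to 58.3 CPM in fiber and 260 to 503 CPM in epithelium) and all 7 measured for macrophages (0.777 to 2.15 CPM in fiber and 11.3 to 34.0 CPM in epithelium). The red cell markers Hbb-y and Alas2 summed to 0.210 to 30.2 CPM in fiber and 2.37 to 244 CPM in epithelium, while Hba-a1, Hba-a2, Hbb-bs and Hbb-bt had no count in any library. Of 7 measured mesenchyme markers 6 were lower (26.6 to 112 CPM in fiber and 364 to 727 CPM in epithelium). Pdgfra made up most of these mesenchyme sums, with group means of 373.7 to 576.6 CPM in epithelium. Notch3 made up most of the mural sums in fiber, with group means of 21.5 to 48.5 CPM in fiber and 142.5 to 162.2 CPM in epithelium. Lower in fiber on average over the 4 stages, too, were 8 of 9 retina and ciliary margin markers (7.40 to 16.3 CPM in fiber and 8.15 to 406 CPM in epithelium), 7 of 7 pigment cell markers (2.78 to 7.85 CPM in fiber and 33.4 to 217 CPM in epithelium) and 5 of 7 neuron markers (18.2 to 33.8 CPM in fiber and 6.30 to 68.6 CPM in epithelium). At E14.5 alone, 3 of 9 retina and ciliary margin markers were lower in fiber and 1 was higher. For pigment cells 1 of 7 was lower and 0 higher, and for neurons 0 of 7 were lower and 1 higher. Neuron sums averaged 19.0 CPM in fiber and 9.40 CPM in epithelium at E14.5, and 29.9 and 11.9 CPM at E16.5. Elavl4 made up most of these fiber sums. Markers without a count in some fiber group included Tyrobp, Lum, Mlana and Hbb-y. In bulk RNA, fewer cells of a type and less RNA per cell cannot be told apart, and the part of these other cells in the lower channel levels of fiber was not tested.

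The most abundant channel messages, compared per kilobase of exon, differed between the tissues in part. In fiber, Kcnj12 (the inward rectifier Kir2.2) stood highest at 55.6 CPM per kb, followed by Trpc6 at 40.6, Clcn6 at 35.2 and Trpm3 at 31.9 CPM per kb, as means of 4 stages. In epithelium, Trpm3 stood highest at 58.4 CPM per kb, followed by Kcnj12 at 45.8, Clic1 at 27.7 and Kcnh2 (the hERG potassium channel) at 11.9 CPM per kb. Kcnj6 ranked 14 of 71 in fiber at 6.40 CPM per kb and 71 of 71 in epithelium at 0.0641 CPM per kb. Scn11a led the sodium channel genes in fiber at 8.02 CPM per kb, and Scn2b in epithelium at 1.24 CPM per kb. Ano10 led the anoctamins in fiber at 3.64 CPM per kb, and Ano1 in epithelium at 9.26 CPM per kb. Cacna2d1 led the genes grouped by symbol as calcium channel accessory genes in fiber at 4.0 CPM per kb, and Cacng7 in epithelium at 8.51. Kcnab2 led the potassium channel accessory genes in fiber at 3.39 CPM per kb, and Kcne1 in epithelium at 7.32. Kcnk5 stood above Kcnk1 in fiber at 0.412 CPM per kb, and Kcnk1 above Kcnk5 in epithelium at 3.61. Kcnma1 (8.94 CPM per kb in fiber and 0.841 in epithelium), Cacna1d (5.05 in fiber and 4.60 in epithelium) and Piezo1 (3.72 in fiber and 10.5 in epithelium) led their families in both tissues. The 9 TRP genes made up 27.4% of the summed channel level per kb in fiber and 28.3% in epithelium, and the 8 inward rectifiers 22.5% in fiber and 18.7% in epithelium. The 6 Clcn genes made up 16.6% in fiber and 8.30% in epithelium, and the 5 Scn genes 3.64% in fiber and 0.745% in epithelium.

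**Figure D1:**
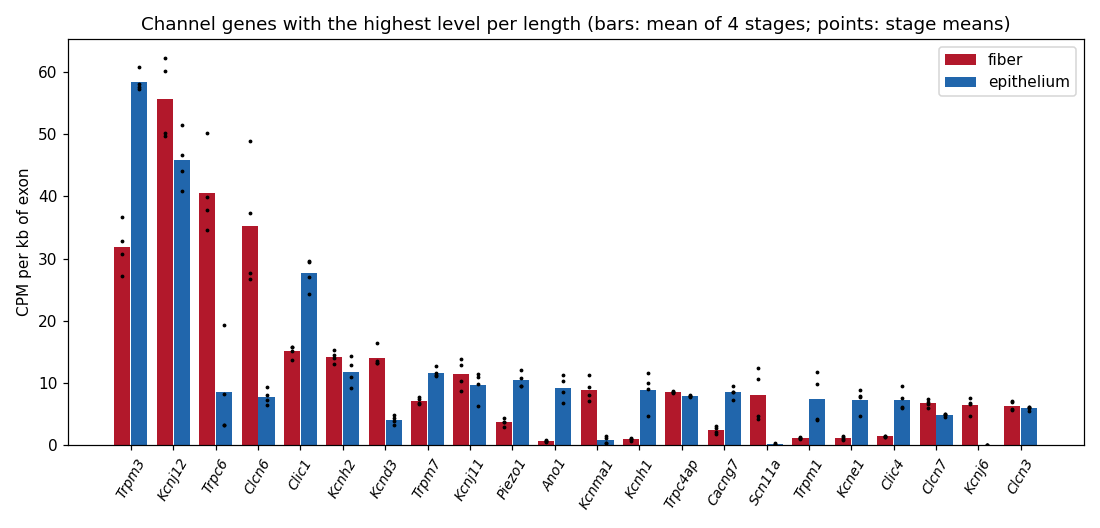
Level per kilobase of exon (vertical axis, CPM per kb) of the 22 channel genes that stand highest in either tissue, with fiber bars left of epithelium bars, each the mean of 4 stages, and points for the stage means. Trpm3 and Kcnj12 stand high in both tissues, while Trpc6 and Clcn6 stand at 40.6 and 35.2 CPM per kb in fiber against 8.51 and 7.75 CPM per kb in epithelium.

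Averaged over the 4 stages, 14 of the 71 channel genes were higher in fiber (19.7%, where 15.7% of all genes tested were higher) and 35 were lower (49.3%, against 22.2% of all genes). A gene passed at an adjusted p under 0.05 in edgeR's quasi-likelihood test and a difference of at least 2-fold. The median log2 difference was -0.88 over the channel genes and -0.03 over all 12427 genes tested. The widest were 101-fold for Kcnj6 and 54.9-fold for Scn11a, both higher in fiber, and 36-fold for Kcnj2, lower in fiber, among genes that reached 5 CPM. Scaling by total counts alone gave 9 higher (12.7%, against 4.72% of all genes) and 47 lower channel genes (66.2%, against 59.7%). The median gene then shifted by -1.24 on the log2 scale, and the lower share of channel genes lay nearer to that of all genes. With crystallins taken out of the totals, 11 were higher (15.5%, against 7.12%) and 40 lower (56.3%, against 38.9%), with a median shift of -0.70. The directions below are therefore relative to the bulk of genes.

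**Figure D2:**
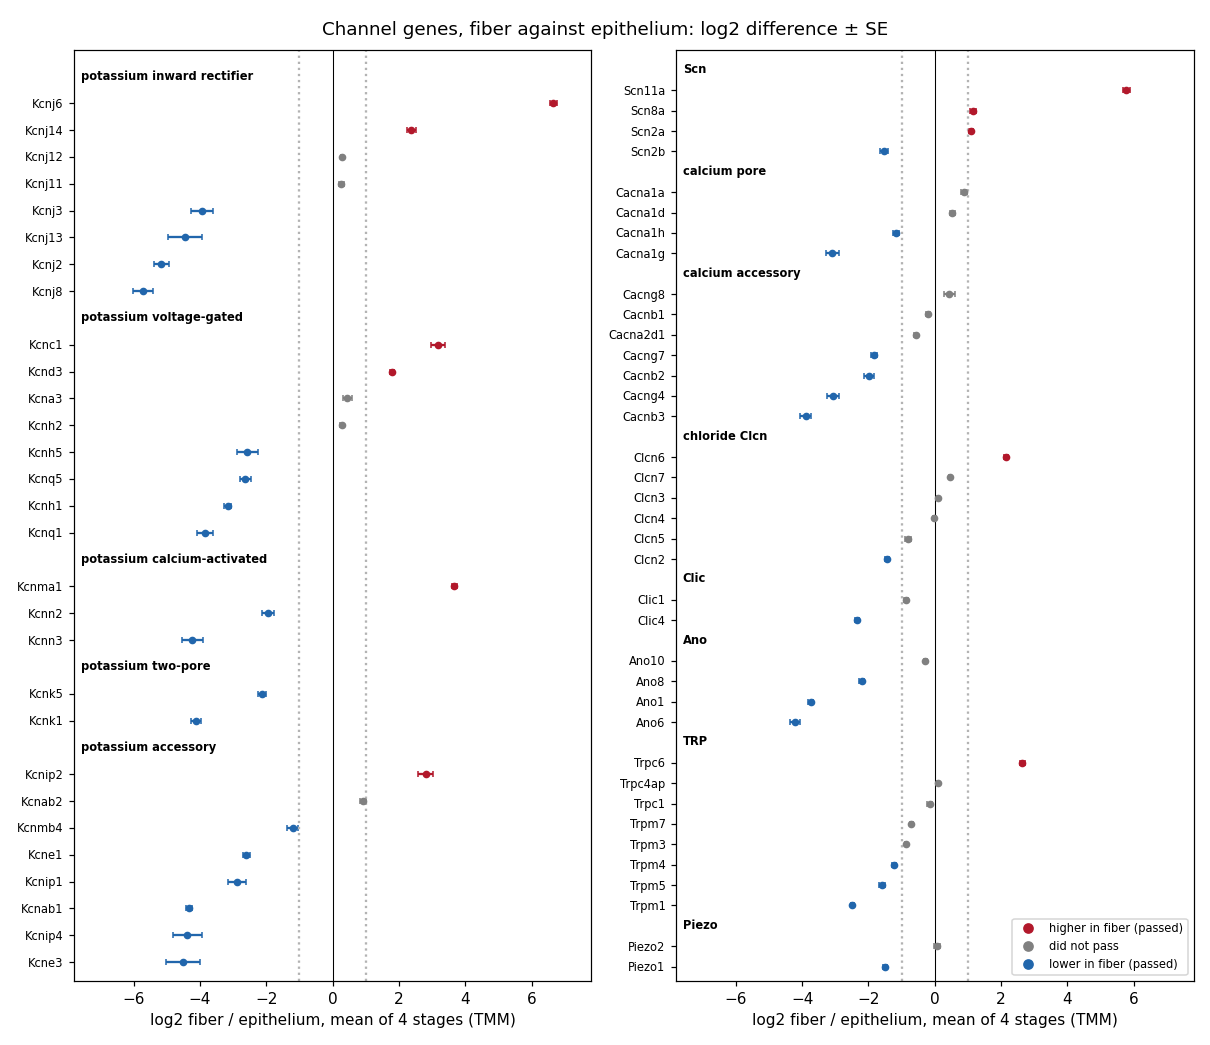
Log2 difference of fiber against epithelium (horizontal axis), mean of 4 stages, for 66 of the 71 channel genes by family, with bars for the SE and dotted lines at 2-fold. Red points passed as higher in fiber (11 genes), blue points as lower (34 genes), and the 21 grey points did not pass.

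Among the inward rectifier potassium channels, which pass current more easily into the cell and hold the resting potential, 2 of 8 were higher in fiber and 4 lower. Kcnj6, which encodes the G protein-gated channel subunit Kir3.2, spans chr16:94748636-94997701 on the minus strand (GRCm38) and had, in fiber, 28.8, 40.3 and 39.7 CPM (E14.5), 46.1, 57.2 and 50.6 (E16.5), 54.4, 49.2 and 46.8 (E18.5) and 60.3, 56.3 and 56.6 (P0.5). In epithelium Kcnj6 had 0.791, 0.345 and 0.3 CPM (E14.5), 0.543, 1.05 and 0.4499 (E16.5), 0.1995, 0.595 and 0.698 (E18.5) and 0.258, 0.256 and 0.386 (P0.5). Every fiber library lay far above every epithelium library, which held 3 to 18 reads of the gene, and the difference was 101-fold (log2 difference 6.66 ± 0.11 SE, adjusted p = 1.18e-24). Its partner subunit Kir3.1, from Kcnj3, went the other way, with fiber values of 0.398, 0.0935 and 0.421 CPM (E14.5), 0, 0 and 0.187 (E16.5), 0.259, 0.133 and 0.154 (E18.5) and 0.253, 0.399 and 0.105 (P0.5). In epithelium Kcnj3 had 0.475, 0.6901 and 0.3 CPM (E14.5), 0.3101, 0.757 and 1.87 (E16.5), 9.38, 11.04 and 13.3 (E18.5) and 13.9, 12.4 and 11.7 (P0.5). Late epithelium libraries lay above all fiber libraries and early ones overlapped them (log2 difference -3.93 ± 0.33 SE, adjusted p = 4.86e-11). Kcnj14 (Kir2.4), under 5 CPM in every group, was also higher in fiber, at 2.37 on the log2 scale.

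Kcnj2, the classical inward rectifier Kir2.1 of muscle and nerve, had, in fiber, 0.265, 0.561 and 0.337 CPM (E14.5), 1.09, 0.333 and 0.467 (E16.5), 0, 0.133 and 0.615 (E18.5) and 0.127, 0.0798 and 0.2099 (P0.5). Its values in epithelium were 10.1, 14.6 and 10.9 CPM (E14.5), 9.46, 11.1 and 15 (E16.5), 11.3, 15.8 and 10.01 (E18.5) and 12.2, 7.24 and 8.94 (P0.5). All fiber libraries lay below all epithelium libraries (log2 difference -5.17 ± 0.22 SE, adjusted p = 8.1e-17). Kcnj13, the Kir7.1 channel of transporting epithelia such as the retinal pigment epithelium, had, in fiber, 0, 0.187 and 0 CPM (E14.5), 0, 0.0831 and 0 (E16.5), 0.0863, 0.266 and 0.154 (E18.5) and 0, 0.239 and 0.315 (P0.5). Its epithelium values were 0.396, 0.414 and 0 CPM (E14.5), 0.0775, 0.582 and 1.05 (E16.5), 10.9, 9.85 and 15.2 (E18.5) and 12.6, 10.2 and 9.21 (P0.5). The tissues overlapped before E18.5 (log2 difference -4.44 ± 0.51 SE, adjusted p = 1.51e-08). Of its exon length, 49.1% overlaps exons of Gigyf2 on the opposite strand, and 31.1% of that of Kcnj3 overlaps Gm26794. Since the strand setting of the counting is not given, reads of such pairs may be shared. Kcnj8, the pore of the ATP-sensitive channel of vessel mural cells, had 0 counts in 7 of 12 fiber libraries and 2.28 to 6.201 CPM (median 3.08) in epithelium (log2 difference -5.71 ± 0.30 SE, adjusted p = 6.56e-15), beside the mural marker sums given above. Kcnj11 (the ATP-sensitive pore Kir6.2) and Kcnj12 differed by 0.27 and 0.28 on the log2 scale and did not pass.

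The promoters of 3 of these rectifiers and of Scn11a, the most fiber-biased sodium channel gene, are shown because genes of the same direction differ in CG content. Each line gives the 250 bases before an annotated start, 5′ to 3′ on the gene's strand, from RefSeq on GRCm38.p6, with CG dinucleotides in capitals.
Kcnj6 promoter, chr16:94997697-94997946, minus strand, higher in fiber: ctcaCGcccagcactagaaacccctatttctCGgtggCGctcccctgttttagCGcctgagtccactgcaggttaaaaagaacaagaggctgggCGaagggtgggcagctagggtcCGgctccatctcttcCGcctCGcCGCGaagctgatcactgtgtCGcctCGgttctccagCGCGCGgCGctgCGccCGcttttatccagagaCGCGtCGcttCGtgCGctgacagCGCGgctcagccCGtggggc
Scn11a promoter, chr9:119825457-119825706, minus strand, higher in fiber: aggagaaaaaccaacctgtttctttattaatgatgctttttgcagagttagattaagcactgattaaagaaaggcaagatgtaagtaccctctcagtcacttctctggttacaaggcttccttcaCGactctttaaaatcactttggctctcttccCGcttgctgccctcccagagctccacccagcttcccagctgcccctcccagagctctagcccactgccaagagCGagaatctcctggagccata
Kcnj2 promoter, chr11:111065914-111066163, plus strand, lower in fiber: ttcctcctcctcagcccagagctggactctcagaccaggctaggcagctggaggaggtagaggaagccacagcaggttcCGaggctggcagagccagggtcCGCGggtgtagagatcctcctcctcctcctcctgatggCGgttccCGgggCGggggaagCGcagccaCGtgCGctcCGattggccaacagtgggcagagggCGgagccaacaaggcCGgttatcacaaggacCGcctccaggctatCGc
Kcnj13 promoter, chr1:87394730-87394979, minus strand, lower in fiber: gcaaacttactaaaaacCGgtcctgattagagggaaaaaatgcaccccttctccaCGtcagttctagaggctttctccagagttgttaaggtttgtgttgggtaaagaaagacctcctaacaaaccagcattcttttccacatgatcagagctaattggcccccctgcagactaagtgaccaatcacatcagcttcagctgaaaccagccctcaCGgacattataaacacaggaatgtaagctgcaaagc
The Kcnj6 window holds 26 CG dinucleotides and that of Scn11a 3, while the Kcnj2 window holds 14 and that of Kcnj13 3. Kcnj6 has a further annotated start with 7 CG dinucleotides before it. Limits were set at a CG content of at least 0.6 of the value from base composition and at least 50% G and C. Together these are a usual sign of a CpG island. Both were met before 7 of 10 matched genes higher in fiber, 10 of 26 lower ones and 13 of 18 that did not pass. In a gene with several annotated starts, each limit could be met by a different window. Of the count table's genes with an entry, 69.8% met both limits, and 17 of the 71 channel genes had no entry. The letters TGCTGA, part of the element that Maf factors of the lens bind, were found on either strand before 0 of 10 genes higher in fiber, 4 of 26 lower ones, 5 of 18 that did not pass and 15.2% of table genes. The palindrome GAANNTTC, which heat shock factors bind, stood before 1 of 10 higher, 2 of 26 lower, 4 of 18 that did not pass and 6.07% of table genes. These matches describe the windows only.

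Of the 11 voltage-gated potassium channel genes, 4 were higher in fiber and 4 lower, or 2 and 4 with totals alone as the scale. Kcnc1, the fast channel Kv3.1, had, in fiber, 6.43, 6.82 and 8.18 CPM (E14.5), 7.74, 5.74 and 7.28 (E16.5), 6.04, 9.44 and 7.76 (E18.5) and 8.103, 6.14 and 16.6 (P0.5). In epithelium Kcnc1 had 0.475, 0.276 and 0.5401 CPM (E14.5), 0.698, 0.873 and 0.375 (E16.5), 0.931, 0.3398 and 1.55 (E18.5) and 2.13, 2.88 and 0.938 (P0.5). The tissues did not overlap, and fiber was higher (log2 difference 3.18 ± 0.21 SE, adjusted p = 6.74e-13).

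Kcnd3 (Kv4.3, a rapidly inactivating A-type channel) and Kcnip2, the calcium-binding subunit that brings such channels to the cell surface, were both higher in fiber. Kcnd3 had, in fiber, 113, 131 and 137 CPM (E14.5), 121, 128 and 129 (E16.5), 117, 142 and 129 (E18.5) and 172, 163 and 137 (P0.5). In epithelium Kcnd3 had 26.3, 33.5 and 33.8 CPM (E14.5), 44.7, 42.4 and 51.5 (E16.5), 37.2, 40.8 and 33.4 (E18.5) and 42.7, 41.6 and 41.8 (P0.5) (log2 difference 1.79 ± 0.05 SE, adjusted p = 2.96e-20). All its fiber libraries lay above all epithelium libraries, but with totals alone its difference was 0.58 on the log2 scale, short of 2-fold. Kcnip2 had, in fiber, 1.33, 1.31 and 1.26 CPM (E14.5), 1.09, 2.08 and 3.64 (E16.5), 6.39, 8.11 and 5.61 (E18.5) and 7.09, 5.91 and 4.83 (P0.5). In epithelium Kcnip2 had 0.158, 0.828 and 0.4801 CPM (E14.5), 0.3101, 0.349 and 0.4499 (E16.5), 0.1995, 0.3398 and 0.698 (E18.5) and 0.5799, 0.897 and 0.386 (P0.5). Kcnip2 libraries did not overlap either, and the Kcnip2 difference was 6.97-fold (log2 difference 2.80 ± 0.22 SE, adjusted p = 1.17e-11). Its paralogs Kcnip1 and Kcnip4 were lower in fiber, and so were 6 of the 8 potassium channel accessory genes in all.

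On the lower side, Kcnh1 (the ether-a-go-go channel EAG1) had, in fiber, 6.89, 7.66 and 7.92 CPM (E14.5), 10.02, 5.49 and 9.71 (E16.5), 6.82, 6.38 and 8.45 (E18.5) and 5.57, 3.27 and 6.19 (P0.5). In epithelium Kcnh1 had 36.2, 40.2 and 26.9 CPM (E14.5), 75.8, 50.8 and 73.3 (E16.5), 69.04, 77.7 and 71.9 (E18.5) and 75.5, 74.8 and 104 (P0.5). The tissues did not overlap at any stage (log2 difference -3.16 ± 0.11 SE, adjusted p = 1.01e-18). Kcnab1, a beta subunit that speeds the closing of voltage-gated channels, had, in fiber, 1.66, 1.22 and 0.674 CPM (E14.5), 0.694, 0.748 and 1.12 (E16.5), 0.691, 0.931 and 0.615 (E18.5) and 1.27, 1.12 and 0.6298 (P0.5). Its epithelium values were 17.2, 17.8 and 17.8 CPM (E14.5), 19.6, 18.98 and 17.99 (E16.5), 20.4, 19.1 and 18.4 (E18.5) and 21.9, 20.4 and 16.9 (P0.5). Fiber lay 20.1-fold below epithelium, whose libraries lay between 16.9 and 21.9 CPM at all stages (log2 difference -4.33 ± 0.10 SE, adjusted p = 1.84e-22). Kcnip4 had 0 counts in 7 of 12 fiber libraries and at most 3 in the others, while epithelium had 0.396, 0.207 and 0.3 CPM (E14.5), 0.0775, 0.291 and 0.825 (E16.5), 4.99, 5.35 and 6.67 (E18.5) and 3.67, 4.29 and 3.696 (P0.5) (log2 difference -4.38 ± 0.45 SE, adjusted p = 2.1e-09). The size of its difference is therefore poorly fixed. Kcna3 and Kcnh2 did not pass, at 0.44 and 0.28 on the log2 scale, nor did the beta subunit gene Kcnab2 at 0.91. Kcnh5, Kcnq1 and Kcnq5 were lower on average as well, at -2.57, -3.85 and -2.63 on the log2 scale, as were Kcne1 at -2.61 and Kcne3 at -4.52. Kcnh5 passed as lower at 2 stages, while at E14.5 it averaged 0.697 CPM in fiber and 0.528 CPM in epithelium.

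The calcium-activated and the background (K2P) potassium channels divided by gene. Kcnma1, the pore of the large-conductance BK channel that opens to calcium and depolarisation, had, in fiber, 172, 209.5 and 196 CPM (E14.5), 167, 161 and 147 (E16.5), 118, 154 and 138 (E18.5) and 118, 119 and 123 (P0.5). In epithelium Kcnma1 had 6.49, 7.45 and 8.401 CPM (E14.5), 2.64, 5.82 and 6.45 (E16.5), 24.9, 20.8 and 27.8 (E18.5) and 25.1, 19.1 and 16.4 (P0.5). Fiber was 12.7-fold higher with no overlap (log2 difference 3.67 ± 0.08 SE, adjusted p = 2.28e-22), while the BK subunit gene Kcnmb4 was lower at -1.21 on the log2 scale. The small-conductance channel gene Kcnn3 had, in fiber, 0.0663, 0.0935 and 0 CPM (E14.5), 0.298, 0 and 0.0934 (E16.5), 0.0863, 0 and 0.2304 (E18.5) and 0.127, 0.479 and 0 (P0.5). In epithelium Kcnn3 had 0.317, 0.552 and 0.24 CPM (E14.5), 1.08, 0.873 and 1.35 (E16.5), 8.58, 9.599 and 9.78 (E18.5) and 8.76, 9.22 and 7.67 (P0.5). Epithelium stood above fiber at each of the 4 stages, and E14.5 epithelium overlapped later fiber (log2 difference -4.23 ± 0.32 SE, adjusted p = 1.01e-11). Kcnn2 was lower at -1.96. Both K2P genes, whose channels carry background potassium current, were lower in fiber. Kcnk1 (the TWIK channel) had, in fiber, 0.464, 0.2804 and 0.5901 CPM (E14.5), 0.198, 0.582 and 0.0934 (E16.5), 0.518, 0.532 and 0.461 (E18.5) and 0.3798, 0.319 and 0.525 (P0.5). Its epithelium values were 2.77, 4.07 and 3.96 CPM (E14.5), 6.05, 6.05 and 5.02 (E16.5), 10.9, 13.2 and 13.7 (E18.5) and 8.96, 11.2 and 10.9 (P0.5). All fiber libraries lay below all epithelium libraries (log2 difference -4.11 ± 0.14 SE, adjusted p = 1.19e-18), as did those of Kcnk5, which differed by -2.13 on the log2 scale.

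The sodium channel genes leaned to fiber, with 4 of 5 higher and the auxiliary subunit gene Scn2b lower at -1.54 on the log2 scale. Scn11a encodes Nav1.9, a channel known from pain-sensing neurons, and spans chr9:119753759-119825456 on the minus strand. It had, in fiber, 65.95, 82.2 and 73.2 CPM (E14.5), 67.6, 67.8 and 54.9 (E16.5), 29.4, 24.6 and 28.9 (E18.5) and 26.3, 22.98 and 26.8 (P0.5). In epithelium Scn11a had 2.22, 1.86 and 1.86 CPM (E14.5), 0.6202, 1.34 and 1.35 (E16.5), 0.599, 0.5097 and 0.621 (E18.5) and 0.129, 0.448 and 0.221 (P0.5). All fiber libraries lay far above all epithelium libraries (log2 difference 5.78 ± 0.09 SE, adjusted p = 3.98e-25). Scn8a (Nav1.6, a channel of axons) had, in fiber, 16.3, 17.8 and 17.4 CPM (E14.5), 8.83, 12.2 and 13.3 (E16.5), 9.84, 7.45 and 7.22 (E18.5) and 7.85, 7.74 and 9.66 (P0.5). In epithelium Scn8a had 6.41, 5.45 and 5.94 CPM (E14.5), 3.101, 4.25 and 4.12 (E16.5), 5.39, 4.67 and 4.73 (E18.5) and 5.28, 4.87 and 4.74 (P0.5). Scn2a (Nav1.2) had, in fiber, 15.5, 14.6 and 15.4 CPM (E14.5), 12.7, 15.3 and 14.01 (E16.5), 12.8, 13.7 and 13.2 (E18.5) and 15.4, 13.6 and 13.3 (P0.5). In epithelium Scn2a had 3.32, 5.11 and 4.32 CPM (E14.5), 5.81, 7.45 and 6.52 (E16.5), 7.25, 6.12 and 7.99 (E18.5) and 9.47, 8.65 and 9.21 (P0.5). Neither overlapped between the tissues, with smaller differences for Scn8a (log2 difference 1.15 ± 0.08 SE, adjusted p = 8.26e-13) and Scn2a (log2 difference 1.10 ± 0.06 SE, adjusted p = 2.43e-14). Scaling by total counts alone left Scn8a at -0.05 and Scn2a at -0.10, so the direction of both depends on the scaling, and the family then counted 2 higher and 1 lower.

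Averaged over the 4 stages, the voltage-gated calcium channel genes were lower in fiber or did not pass. Of 4 pore genes 2 were lower, the T-type genes Cacna1g (log2 difference -3.08 ± 0.18 SE, adjusted p = 8.08e-14) and Cacna1h (log2 difference -1.17 ± 0.09 SE, adjusted p = 4.2e-12). Of the 7 genes grouped by symbol as accessory, 4 were lower. Cacnb3, a cytoplasmic beta subunit gene, had, in fiber, 0.133, 0.561 and 0.5901 CPM (E14.5), 0.298, 0.831 and 0.187 (E16.5), 0.518, 0.532 and 0.384 (E18.5) and 0.3798, 0.1596 and 0.4199 (P0.5). Its epithelium values were 4.195, 4.83 and 3.54 CPM (E14.5), 4.34, 4.19 and 5.02 (E16.5), 8.18, 9.09 and 11.6 (E18.5) and 8.51, 7.495 and 6.896 (P0.5). No libraries overlapped (log2 difference -3.89 ± 0.17 SE, adjusted p = 1.13e-16). The L-type pore gene Cacna1d (Cav1.3), at 0.53 on the log2 scale, did not pass on average, and its stage values below run in opposite directions. Cacnb2 (-1.98 on the log2 scale), Cacng4 (-3.06) and Cacng7 (-1.83) were the other lower accessory genes. The pore gene Cacna1a (P/Q-type, 0.88), Cacnb1 (-0.21) and Cacng8 (0.43) did not pass. Cacna2d1, an alpha2delta subunit gene, had 39.5 to 59.8 CPM (median 47.9) in fiber and 65.2 to 82.5 CPM (median 73.8) in epithelium, a difference of -0.58 that did not reach 2-fold.

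Of the 6 Clcn genes, 1 was higher in fiber, 1 was lower and 4 did not pass, where 15.7% of all genes were higher and 22.2% lower. Clcn6, a chloride-proton exchanger of late endosomes, spans chr4:148004259-148038821 on the minus strand and had, in fiber, 283, 258 and 328 CPM (E14.5), 220.0, 251 and 195 (E16.5), 164, 155 and 173 (E18.5) and 174, 152 and 150.2 (P0.5). In epithelium Clcn6 had 48.9, 53.1 and 63.9 CPM (E14.5), 48.9, 50.9 and 43.3 (E16.5), 38.8, 35.6 and 40.2 (E18.5) and 48, 41.7 and 38.6 (P0.5). No libraries overlapped, and fiber was 4.44-fold higher (log2 difference 2.15 ± 0.06 SE, adjusted p = 2.9e-21). Clcn2, a plasma membrane chloride channel, was the lower member, with 5.45 to 11.2 CPM (median 8.74) in fiber and 17.8 to 26.4 CPM (median 23.5) in epithelium (log2 difference -1.45 ± 0.06 SE, adjusted p = 8.79e-17). The endosomal and lysosomal exchanger genes Clcn3, Clcn4, Clcn5 and Clcn7 differed by 0.10, -0.02, -0.82 and 0.46 on the log2 scale and did not pass. Totals alone left Clcn6 at 0.94, short of 2-fold, and the family at 0 higher and 4 lower, where 59.7% of all genes were lower. Clcn3 and Clcn7 take negative values when totals alone, or totals without crystallins, set the scale.

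Of the anoctamin genes, whose proteins are calcium-activated chloride channels or lipid scramblases, 3 of 4 were lower in fiber. Ano1, the calcium-activated chloride channel of secretory epithelia, had, in fiber, 5.104, 6.36 and 5.99 CPM (E14.5), 3.57, 3.08 and 3.08 (E16.5), 3.28, 4.52 and 5.3 (E18.5) and 3.54, 4.55 and 3.46 (P0.5). Its epithelium values were 42.3, 45.8 and 39.1 CPM (E14.5), 60.8, 45.9 and 55.1 (E16.5), 62.3, 70 and 61.1 (E18.5) and 64.2, 65.3 and 82.03 (P0.5). The tissues did not overlap (log2 difference -3.74 ± 0.07 SE, adjusted p = 2.39e-23). Ano6, a phospholipid scramblase, had, in fiber, 1.13, 1.22 and 1.94 CPM (E14.5), 0.893, 0.914 and 0.467 (E16.5), 0.604, 1.46 and 1.38 (E18.5) and 0.7596, 1.44 and 0.315 (P0.5). In epithelium Ano6 had 11.7, 14.1 and 11.2 CPM (E14.5), 6.51, 8.09 and 13.9 (E16.5), 37.4, 32.2 and 40.4 (E18.5) and 36.1, 31.97 and 25.2 (P0.5). It did not overlap either (log2 difference -4.21 ± 0.16 SE, adjusted p = 1.09e-17). Ano8 was lower at -2.20 on the log2 scale, and Ano10 at -0.28 did not pass. Clic4, of the chloride intracellular channel family, had 7.24 to 10.8 CPM (median 9.31) in fiber and 35.2 to 65.95 CPM (median 47.4) in epithelium (log2 difference -2.34 ± 0.06 SE, adjusted p = 1.81e-21). Clic1 differed by -0.87 and did not reach 2-fold, though its libraries did not overlap.

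Among 9 TRP family genes Trpc6 was higher in fiber and 4 were lower. Trpc6, a cation channel opened by diacylglycerol, had, in fiber, 161, 198 and 166 CPM (E14.5), 222, 265 and 276 (E16.5), 253, 171 and 182 (E18.5) and 191, 187 and 195 (P0.5). In epithelium Trpc6 had 116, 83.6 and 92.95 CPM (E14.5), 32.1, 48.3 and 44.9 (E16.5), 19.3, 17.4 and 13.7 (E18.5) and 17.5, 16.1 and 15.8 (P0.5). Fiber lay above epithelium throughout, 6.24-fold on average (log2 difference 2.64 ± 0.08 SE, adjusted p = 5.99e-20). Trpc1 differed by -0.15 (adjusted p = 0.0702 in the edgeR test) and did not pass, nor did Trpc4ap at 0.10. Trpm4 and Trpm5, channels opened by calcium that carry monovalent cations, were lower on average at -1.23 and -1.59, and the channel kinase gene Trpm7 differed by -0.71 without reaching 2-fold. Trpm5 passed as lower at 3 stages, while at E14.5 it averaged 5.45 CPM in fiber and 3.54 CPM in epithelium. Totals alone gave 1 higher and 8 lower in this family, and totals without crystallins 1 and 6, where 59.7% and 38.9% of all genes were lower.

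Trpm3 and Trpm1 are shown with the microRNAs in their introns, since the pair hosts near-identical microRNAs. Mature sequences are from RefSeq (GRCm38.p6), 5′ to 3′, with the seed, bases 2 to 8, in capitals.
miR-204-5p, in an intron of Trpm3, chr19:22750610-22750631, plus strand: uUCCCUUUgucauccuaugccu
miR-211-5p, in an intron of Trpm1, chr7:64205831-64205852, plus strand: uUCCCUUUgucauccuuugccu
Both share the seed UCCCUUU and differ at 1 of 22 positions. The counts measure the host transcripts and not the microRNAs. Trpm3 had, in fiber, 879, 896 and 911 CPM (E14.5), 791, 830.3 and 788 (E16.5), 789.9, 728 and 739 (E18.5) and 662, 637 and 697 (P0.5). Its epithelium values were 1296, 1574 and 1354 CPM (E14.5), 1432, 1378 and 1386 (E16.5), 1502, 1445 and 1507 (E18.5) and 1446, 1354 and 1451 (P0.5). Fiber lay below epithelium in every library, at -0.88 ± 0.03 SE on the log2 scale on average, which did not reach 2-fold, and at -1.09 at P0.5, which did. Trpm1 had, in fiber, 19.9, 20.5 and 18.46 CPM (E14.5), 17.7, 20.4 and 16.8 (E16.5), 17.5, 17.3 and 14.98 (E18.5) and 15.4, 15.6 and 17.1 (P0.5). In epithelium Trpm1 had 57.5, 65.97 and 61.4 CPM (E14.5), 60.1, 58.7 and 59.8 (E16.5), 172, 160.3 and 191 (E18.5) and 168, 150.4 and 117 (P0.5). It was lower in fiber at every stage (log2 difference -2.48 ± 0.06 SE, adjusted p = 1.84e-22). Trpm1 is also known from pigment cells, whose markers are given below.

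The Piezo genes encode large channels opened by membrane stretch. Piezo1 had, in fiber, 36.9, 39.9 and 35.6 CPM (E14.5), 48.1, 46.1 and 36.7 (E16.5), 38.1, 40.03 and 34.3 (E18.5) and 27.98, 25.9 and 33.9 (P0.5). In epithelium Piezo1 had 84.7 to 144 CPM (median 103) over the 12 libraries. Fiber lay below epithelium without overlap (log2 difference -1.51 ± 0.06 SE, adjusted p = 2.34e-17), and 24.6% of the exon length of Piezo1 overlaps Ctu2 on the opposite strand. Piezo2 did not pass on average (log2 difference 0.07 ± 0.09 SE, adjusted p = 0.503), and its direction turned with stage as described below. The lens-studied genes Trpv1, Trpv4, Kcnb2, Kcnk2 and Cacna1c were not analysed here.

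**Figure D3:**
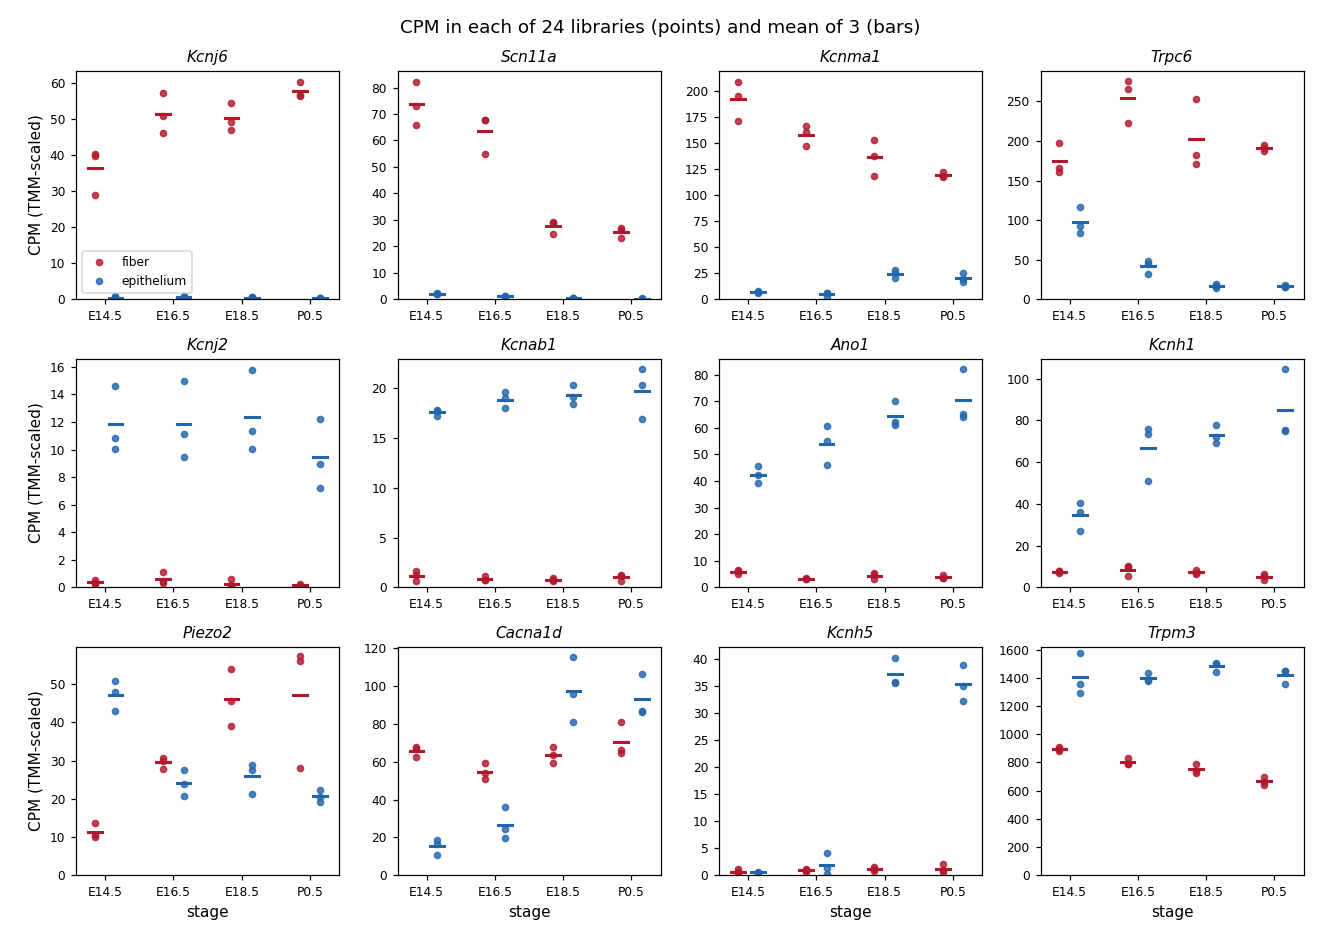
CPM (vertical axes, linear from 0) of 12 channel genes in each of the 24 libraries by stage, with fiber in red left of epithelium in blue and a bar at the mean of 3. Kcnj6, Scn11a, Kcnma1 and Trpc6 stand above epithelium in every fiber library, Kcnj2, Kcnab1, Ano1 and Kcnh1 below it, and Piezo2 and Cacna1d cross over between E14.5 and P0.5.

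Stage by stage, 10 of 71 channel genes were higher in fiber at all 4 stages (14.1%, against 10.4% of all genes) and 25 lower at all 4 (35.2%, against 16.3%). The counts higher and lower were 16 and 26 at E14.5 (14.0% and 19.4% of all genes), 15 and 32 at E16.5 (14.6% and 20.4%), 11 and 36 at E18.5 (17.4% and 24.2%) and 13 and 37 at P0.5 (17.5% and 24.5%). With totals alone as the scale, they were 12 and 40, 10 and 44, 8 and 51, and 7 and 51 in the same order of stages, while 41.4%, 54.2%, 68.9% and 67.9% of all genes were then lower. The 51 lower channel genes at E18.5 and at P0.5 (71.8%) thus lay near the share of all genes. The 15 genes that passed at no stage include the endosomal exchangers Clcn3, Clcn4 and Clcn7, the rectifiers Kcnj11 and Kcnj12, Kcnh2, Trpc1 and Trpm7. Scn8a and Scn2a passed as higher at E14.5 and E16.5 and not at E18.5 or P0.5. Trpc6 passed at each stage from E16.5 on, and its difference at E14.5 was 0.84 on the log2 scale.

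Piezo2 was the channel gene called in opposite directions at different stages. It had, in fiber, 10.4, 13.6 and 10.1 CPM (E14.5), 29.96, 30.8 and 27.7 (E16.5), 54.04, 38.96 and 45.5 (E18.5) and 55.96, 57.4 and 28.03 (P0.5). In epithelium Piezo2 had 50.7, 42.9 and 47.8 CPM (E14.5), 20.6, 23.98 and 27.6 (E16.5), 27.6, 28.9 and 21.3 (E18.5) and 22.4, 19.03 and 20.4 (P0.5). Fiber lay below epithelium at E14.5 (log2 difference -2.06 ± 0.20 SE, adjusted p = 1.59e-09) and above it at P0.5 (log2 difference 1.20 ± 0.18 SE, adjusted p = 2.36e-06), with the smallest gap between tissues at E16.5. Cacna1d had, in fiber, 62.4, 66.8 and 68.03 CPM (E14.5), 54.1, 59.1 and 50.7 (E16.5), 67.8, 59.6 and 63.6 (E18.5) and 65.96, 64.7 and 81.2 (P0.5). In epithelium Cacna1d had 10.6, 18.6 and 16.7 CPM (E14.5), 19.5, 24.5 and 35.9 (E16.5), 95.6, 80.9 and 116 (E18.5) and 106, 86.04 and 86.99 (P0.5). It was higher in fiber at E14.5 (log2 difference 2.09 ± 0.18 SE, adjusted p = 2.62e-10) and at E16.5, and its later values of -0.61 at E18.5 and -0.40 at P0.5 did not reach 2-fold.

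In the epithelium itself, P0.5 against E14.5, 23 of 71 channel genes rose (32.4%, against 10.1% of all genes) and 6 fell (8.45%, against 3.21%). Voltage-gated potassium genes rose in 5 of 11 cases and calcium pore genes in 3 of 4, with no fall in either family. Kcnh5, the ether-a-go-go channel EAG2, had 38.8, 32.2 and 34.9 CPM at P0.5 and 0.475, 0.6901 and 0.4201 CPM at E14.5 (log2 difference 6.04 ± 0.40 SE, adjusted p = 1.51e-11). All P0.5 libraries lay far above all E14.5 libraries. Kcnj13 averaged 10.7 ± 1.76 CPM at P0.5 and 0.2699 ± 0.234 CPM at E14.5 (SD, n = 3 each; log2 difference 5.35 ± 0.45 SE, adjusted p = 8.54e-10). Kcnj3 averaged 12.7 ± 1.13 CPM at P0.5 and 0.488 ± 0.195 CPM at E14.5 (SD, n = 3 each; log2 difference 4.69 ± 0.34 SE, adjusted p = 9.55e-11). Neither rectifier overlapped between the stages.

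Kcnn3 averaged 8.55 ± 0.7997 CPM at P0.5 and 0.3696 ± 0.163 CPM at E14.5 in epithelium (SD, n = 3 each; log2 difference 4.51 ± 0.33 SE, adjusted p = 1.06e-10). Kcnip4 averaged 3.89 ± 0.351 CPM at P0.5 and 0.301 ± 0.0944 CPM at E14.5 (SD, n = 3 each; log2 difference 3.67 ± 0.42 SE, adjusted p = 1.06e-07). The T-type calcium channel gene Cacna1g had 50.3, 36.96 and 41.2 CPM at P0.5 and 3.88, 4.28 and 2.94 CPM at E14.5 (log2 difference 3.54 ± 0.25 SE, adjusted p = 6.99e-11). In each of these genes the stages were clearly apart. Other rises were those of Cacnb2 (3.28 on the log2 scale), Cacna1d (2.59), Trpm5 (1.96), Cacna1a (1.55) and Kcnh1 (1.31).

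Falls in epithelium were few, and 6 of 7 mesenchyme markers and 2 of 2 tested red cell markers fell in the same comparison. Kcnip1 had 0.387, 1.41 and 0.441 CPM at P0.5 and 6.33, 7.38 and 5.52 CPM at E14.5 (log2 difference -3.11 ± 0.33 SE, adjusted p = 2.73e-08). Scn11a averaged 0.266 ± 0.165 CPM at P0.5 and 1.98 ± 0.205 CPM at E14.5 (SD, n = 3 each; log2 difference -2.85 ± 0.36 SE, adjusted p = 4.37e-07). Trpc6 averaged 16.46 ± 0.886 CPM at P0.5 and 97.5 ± 16.8 CPM at E14.5 (SD, n = 3 each; log2 difference -2.57 ± 0.16 SE, adjusted p = 1.07e-11). The stages did not overlap in these 3 genes, and Scn11a and Trpc6 are among the genes higher in fiber. Piezo2 fell by less (log2 difference -1.19 ± 0.18 SE, adjusted p = 5.38e-06), and Kcne3 and Kcnj14 fell at levels under 5 CPM. Without E14.5 epithelium replicate 1, Scn2a (0.95 on the log2 scale) and Kcnj14 (-0.96) missed the 2-fold limit, as did Kcnj14 without E14.5 replicate 3 or P0.5 replicate 2 and Clcn5 without P0.5 replicate 1 (0.92).

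The rises came mostly between E16.5 and E18.5, a step at which 21 of 71 channel genes passed as higher (29.6%, against 6.75% of all genes) and Kcnip1 and Trpc6 as lower (2.82%, against 0.547%). In a description chosen after the values were seen, 19 of 71 channel genes (26.8%) had all 6 E18.5 and P0.5 epithelium libraries above all 6 E14.5 and E16.5 libraries with at least a 2-fold difference of means, against 6.70% of all genes. The reverse held for Kcnip1 and Trpc6, 2.82% of the channel genes against 0.595% of all genes. The ratio of late to early means was 29.3 for Kcnh5, 27.0 for Kcnj13, 16.3 for Kcnj3, 13.7 for Kcnip4, 12.1 for Kcnn3, 10.3 for Cacna1g and 8.75 for Cacnb2. Before the step, epithelium at E16.5 against E14.5 had 2 rises and 3 falls among the channel genes (1.71% and 0.821% of all genes). After it, at P0.5 against E18.5, 1 channel gene passed, the fall of Kcne3, where 0.579% of all genes rose and 0.426% fell. Some genes moved at other steps without reaching 2-fold there. Kcnh1 averaged 66.7 ± 13.8 CPM at E16.5 and 34.4 ± 6.82 CPM at E14.5, and Piezo2 24.1 ± 3.49 CPM at E16.5 and 47.1 ± 3.91 CPM at E14.5 (SD, n = 3 each). Unlike these, Kcnh5 passed as higher at E18.5 against E16.5, with 40.2, 35.4 and 35.6 CPM at E18.5 and 0.233, 1.397 and 4.199 CPM at E16.5. Kcnh5 also passed as higher at E16.5 against E14.5.

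Markers of neighbouring tissues also moved. Those of the retina, pigment cells and neurons were higher from E18.5 on, and those of mesenchyme and red cells fell. The 9 measured of 10 retina and ciliary margin markers summed to 8.15 to 19.4 CPM in E14.5 epithelium libraries, 10.3 to 48.1 CPM at E16.5, 280 to 406 CPM at E18.5 and 248 to 261 CPM at P0.5, and all 9 rose at P0.5 against E14.5. The 7 measured of 9 pigment cell markers summed to 38.1 to 40.9 CPM at E14.5, 33.4 to 36.3 CPM at E16.5, 193 to 217 CPM at E18.5 and 112 to 212 CPM at P0.5, and 6 of 7 rose. The 7 measured of 8 neuron markers summed to 6.30 to 11.5 CPM at E14.5, 9.78 to 13.7 CPM at E16.5, 29.4 to 68.6 CPM at E18.5 and 20.3 to 55.6 CPM at P0.5, and 6 of 7 rose. Pkp1, the 1 measured cornea marker, had 6.12 to 11.2 CPM at P0.5 and 0.0600 to 0.317 CPM at E14.5. No marker of the retina, pigment cell and neuron lists was at 0 in any epithelium group. The 7 measured mesenchyme markers summed to 377 to 418 CPM in epithelium at P0.5 and 644 to 727 CPM at E14.5, and 6 of 7 fell. Pdgfra made up most of both sums, with means of 373.7 CPM at P0.5 and 576.6 CPM at E14.5. In the same order, Col1a1 averaged 9.348 and 19.42 CPM, Col1a2 7.36 and 27.2 CPM and Col3a1 5.197 and 58.91 CPM. Both tested red cell markers fell, with sums of 2.37 to 3.33 CPM at P0.5 and 155 to 244 CPM at E14.5. The 8 lens epithelium markers summed to 2930 to 3037 CPM at P0.5 and 2870 to 3263 CPM at E14.5, but 2 of the 8 rose and 1 fell. Sfrp2 averaged 8.55 CPM at P0.5 and 396.8 CPM at E14.5 in epithelium. Gja1 averaged 595.4 and 180 CPM, and Aqp1 50.66 and 2.241 CPM, in the same order. The part of such cells in the rises and falls of channel genes was not tested.

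**Figure D4:**
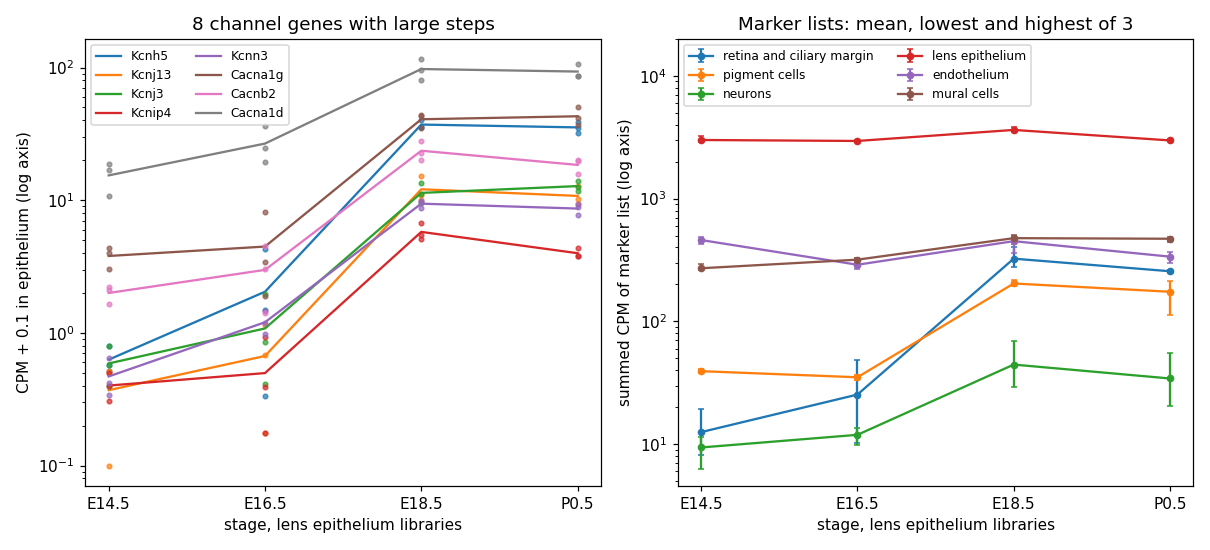
Left, CPM plus 0.1 (log axis) of 8 channel genes with large steps in epithelium libraries by stage, points for libraries and lines through the means of 3. Right, summed CPM (log axis) of marker lists in the same libraries, with bars from the lowest to the highest of 3: retina and ciliary margin, pigment cell and neuron sums step up between E16.5 and E18.5 as the channel genes do, while the lens epithelium sum lies between 2870 and 3809 CPM. Single genes of the lens epithelium list moved in both directions.

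In fiber, P0.5 against E14.5, 6 of 71 channel genes rose (8.45%, against 6.69% of all genes) and 4 fell (5.63%, against 5.24%), shares close to those of all genes. Kcna3, the Kv1.3 channel, had 5.57, 4.15 and 8.397 CPM at P0.5 and 0.862, 1.22 and 1.35 CPM at E14.5 (log2 difference 2.40 ± 0.26 SE, adjusted p = 4.3e-08). Kcnip2 averaged 5.94 ± 1.13 CPM at P0.5 and 1.3 ± 0.0315 CPM at E14.5 (SD, n = 3 each; log2 difference 2.17 ± 0.34 SE, adjusted p = 8.73e-06). The P0.5 libraries of both potassium channel genes all lay above the E14.5 libraries.

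Piezo2 averaged 47.1 ± 16.6 CPM at P0.5 and 11.4 ± 1.91 CPM at E14.5 in fiber (SD, n = 3 each; log2 difference 2.06 ± 0.20 SE, adjusted p = 1.18e-08), with P0.5 fiber replicate 3 well below the other two. Cacna1g rose at a low level, 2.15, 2.79 and 2.94 CPM at P0.5 against 0.928, 1.12 and 0.843 CPM at E14.5 (log2 difference 1.47 ± 0.50 SE, adjusted p = 0.0163). Among the falls, Trpm5 had 1.39, 1.68 and 1.99 CPM at P0.5 and 4.51, 6.54 and 5.31 CPM at E14.5 (log2 difference -1.66 ± 0.21 SE, adjusted p = 6.61e-07). Scn11a averaged 25.4 ± 2.07 CPM at P0.5 and 73.8 ± 8.16 CPM at E14.5 (SD, n = 3 each; log2 difference -1.54 ± 0.11 SE, adjusted p = 6.25e-11). Scn8a fell less (log2 difference -1.03 ± 0.14 SE, adjusted p = 2.2e-06), and neither sodium channel gene overlapped between the stages. Scn8a missed the 2-fold limit without P0.5 fiber replicate 1 (-0.99 on the log2 scale) or 2 (-0.96), and Cacna1g missed the p threshold without P0.5 fiber replicate 2 (adjusted p = 0.0509). Kcne3, with 0 counts in the P0.5 and 2, 1 and 2 in the E14.5 fiber libraries, passed too, missed the threshold when any 1 of these libraries was left out, and no size is given at such counts. Without P0.5 fiber replicate 1 the falls number 2, and with totals alone as the scale there were 4 rises and 16 falls, where 17.4% of all genes fell and the median gene shifted by -0.56.

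The tissue difference itself changed between the stages, P0.5 against E14.5, for 27 channel genes: it moved up for 7 (9.86%, against 3.77% of all genes) and down for 20 (28.2%, against 7.92%). Upward changes were led by Piezo2 (log2 difference 3.26 ± 0.27 SE, adjusted p = 3.12e-09), Trpc6 (log2 difference 2.69 ± 0.22 SE, adjusted p = 1.92e-09), Kcnip1 (log2 difference 2.36 ± 0.89 SE, adjusted p = 0.0375), Kcnip2 (log2 difference 1.89 ± 0.65 SE, adjusted p = 0.0222) and Kcna3 (log2 difference 1.495 ± 0.37 SE, adjusted p = 0.00224). Downward changes were led by Kcnh5 (log2 difference -5.21 ± 0.94 SE, adjusted p = 0.000117), Kcnip4 (log2 difference -5.10 ± 1.63 SE, adjusted p = 0.0148), Kcnj3 (log2 difference -4.94 ± 0.97 SE, adjusted p = 0.000293), Trpm5 (log2 difference -3.62 ± 0.26 SE, adjusted p = 3.78e-10) and Cacnb2 (log2 difference -3.05 ± 0.47 SE, adjusted p = 1.8e-05). Cacnb2, a beta subunit gene of calcium channels, had 1.14, 1.995 and 1.47 CPM in P0.5 fiber and 19.6, 19.9 and 15.6 CPM in P0.5 epithelium. At E14.5 it had 1.33, 1.59 and 1.18 CPM in fiber and 2.14, 2.001 and 1.56 CPM in epithelium. Trpm5 had 13.8, 12.2 and 15.6 CPM at P0.5 and 3.25, 3.73 and 3.66 CPM at E14.5 in epithelium, the opposite course to that in fiber. The marker sums of retina, pigment cells and neurons moved in epithelium with the downward changes, and their part was not tested. Kcnip1 reached at most 0.479 CPM in any fiber library. Kcnip1 no longer passed when P0.5 fiber replicate 2 was left out (1.22 on the log2 scale, adjusted p = 0.546), nor Kcnip4 without E14.5 fiber replicate 3 (-3.84, adjusted p = 0.253), nor Kcnip2 without E14.5 epithelium replicate 2 (1.34, adjusted p = 0.171). Kcnip1 also missed the threshold without E14.5 fiber replicate 1, 2 or 3 (adjusted p = 0.0564, 0.05 and 0.0569), E14.5 epithelium replicate 2 (0.051) or P0.5 epithelium replicate 1 (0.0628) or 3 (0.0634), and Kcnip2 without P0.5 epithelium replicate 3 (0.0556). Totals alone gave 2 upward and 37 downward changes (1.11% and 26.2% of all genes, median shift -0.68). Totals without crystallins gave 4 and 24 (2.17% and 12% of all genes).

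**Figure D5:**
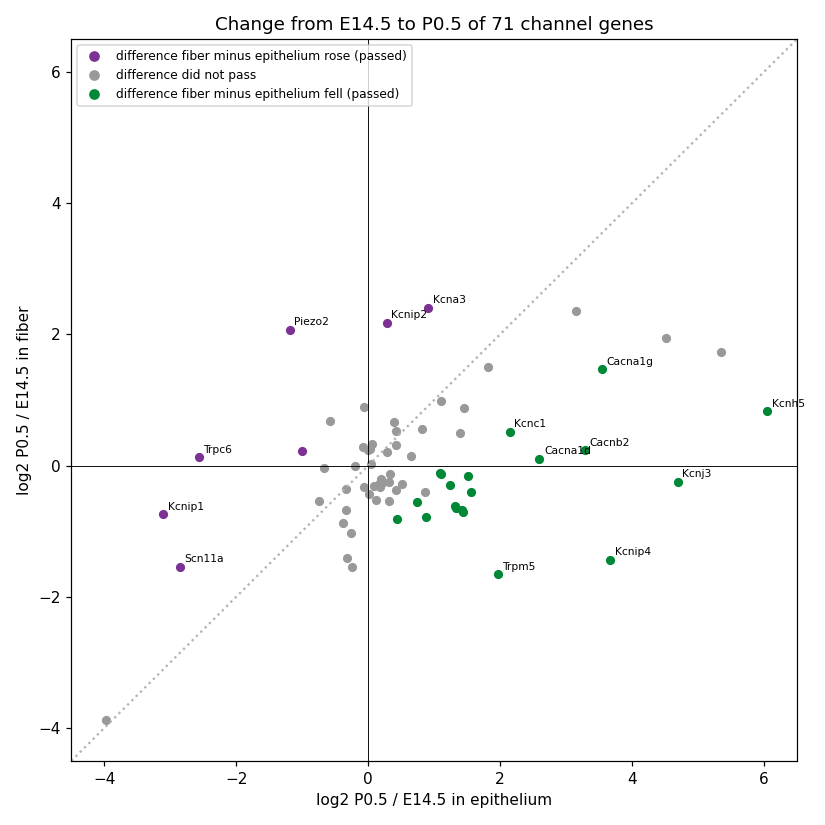
Log2 change at P0.5 against E14.5 of 71 channel genes in epithelium (horizontal axis) and in fiber (vertical axis), with the dotted line where both changes are equal. Purple points are the 7 genes whose fiber to epithelium difference moved up, green points the 20 whose difference moved down, and most green points lie to the right of 0, where epithelium rose.

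The pumps, exchangers and partners that work with these channels were counted from lists of genes. With TMM scaling, 15.7% of all genes tested were higher in fiber and 22.2% lower, the shares to set beside each list below. In epithelium, P0.5 against E14.5, 10.1% of all genes rose and 3.21% fell. Of 8 measured sodium-potassium pump genes, 1 was higher in fiber and 6 were lower. The higher gene was Fxyd1, which encodes a regulator of the pump (log2 difference 2.83 ± 0.11 SE, adjusted p = 1.49e-17). In epithelium over time 4 of these 8 rose and none fell. Of 11 calcium pump and exchanger genes, 3 were higher in fiber and 4 lower. The potassium-dependent sodium-calcium exchanger genes Slc24a4 (log2 difference 5.60 ± 0.06 SE, adjusted p = 7.15e-28) and Slc24a2 (log2 difference 4.17 ± 0.14 SE, adjusted p = 9.74e-19) were higher, and the plasma membrane calcium pump gene Atp2b4 was lower (log2 difference -4.63 ± 0.14 SE, adjusted p = 9.73e-20).

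Of 17 genes of store calcium release and entry, 6 were higher in fiber and 3 lower, among them Orai2, a store-operated channel subunit, at 2.02 and the inositol trisphosphate receptor gene Itpr3 at -4.004 on the log2 scale. Totals alone gave 0 higher and 6 lower (59.7% of all genes were then lower, a larger share than in this list), and totals without crystallins 5 and 4. Of 11 genes of cation-chloride cotransport and its kinases, 1 was higher and 4 lower: the kinase gene Stk39 was higher (log2 difference 2.81 ± 0.05 SE, adjusted p = 1.1e-24), and the potassium-chloride cotransporter gene Slc12a7 lower (log2 difference -3.18 ± 0.06 SE, adjusted p = 1.11e-23). With totals alone 7 of these 11 were lower, near the share of all genes (59.7%). Among 16 other channel genes, 2 were higher and 5 lower, or 1 and 10 with totals alone and 1 and 8 without crystallins. Of all genes, 59.7% were lower with totals alone, near the share of this list, and 38.9% without crystallins. Scnn1b, the beta subunit of the epithelial sodium channel, had 60.5 ± 4.86 CPM in fiber and 0.165 ± 0.136 CPM in epithelium at P0.5 (log2 difference 7.16 ± 0.10 SE, adjusted p = 3.45e-26 averaged over stages).

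Of 16 partner genes of the channels, 2 were higher in fiber and 3 lower, near the shares of all genes (15.7% and 22.2%). The counts were 0 and 10 with totals alone and 0 and 8 without crystallins, where 59.7% and 38.9% of all genes were lower. Abcc9, the sulfonylurea receptor that pairs with the Kcnj8 product in mural cells and one of the mural markers, was lower as Kcnj8 was (log2 difference -3.98 ± 0.12 SE, adjusted p = 1.7e-19). Abcc8, the receptor that pairs with the Kcnj11 product, differed by 0.61 and did not pass, as Kcnj11 did not. Ostm1, the subunit of the lysosomal exchanger made from Clcn7, differed by 0.55 and Clcn7 by 0.46, neither reaching 2-fold. In epithelium over time 4 of the 16 rose and none fell, led by Stac, an adaptor of L-type calcium channels, at 6.24.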

How the data were processed

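Per the submitters' processing notes, the build was mm10 and the authors' tools were TopHat2 2.0.13, Cufflinks 2.2.1 (Cuffdiff), HTSeq 0.6.1 and Trim Galore 0.4.1. The deposited values are whole-number read counts per gene symbol for 12611 genes in 24 libraries. The strand setting of the counting and how these genes were selected are not given in the sources used here.

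From the deposited counts, genes were filtered with filterByExpr of edgeR 4.0.16 in R 4.3.3 (minimum count 10, minimum total 15), which left 12427. Libraries were scaled by TMM, 8 group means were fitted with 16 residual degrees of freedom, and quasi-likelihood tests were adjusted by Benjamini-Hochberg over all 12427 genes. The biological coefficient of variation was 0.0821. The SE is the log2 difference over the square root of F. Replicate pairs differed by more than sampling noise, with chi-square per degree of freedom from 3.89 to 320. The labels say biological replicates, and p-values measure the spread between them. Lengths are exon unions from GENCODE release 21 of the mouse (M21), in which all 71 symbols match 1 gene. The fit was checked on simulated counts.

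Values per library are given for the 12 largest rises and 12 largest falls called with a group mean of at least 5 CPM in the averaged comparison, the 6 each way over time in each tissue, the 5 each way in the change of the tissue difference, the highest gene per length in each family and channels studied in lens. Up to 4 called genes of each list of partner genes are named, and Abcc8 and Ostm1, outside that rule, were named after their values were seen, for their known roles. A few genes that this rule selects are counted but not reported here by name. The members and lists were chosen with earlier results of these data known. Alternatives were DESeq2 1.42.0, other scalings, no filter, the compared groups alone, each library left out, a replicate term and, added after the data were seen, fits without early or late stages. The tests between neighbouring stages in epithelium were also added then.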

Additional observations from a re-analysis of the deposited data

Results flagged for a closer look

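For 27 channel genes the change at P0.5 against E14.5 differed between fiber and epithelium by the test of that difference itself (edgeR, adjusted over all genes). The values below are the log2 change in fiber minus that in epithelium. Positive values were found for Piezo2 (3.26), Trpc6 (2.69), Kcnip1 (2.36), Kcnip2 (1.89), Kcna3 (1.495), Scn11a (1.31) and Kcnj14 (1.22). Among potassium channel genes, negative values were found for Kcnh5 (-5.21), Kcnip4 (-5.10), Kcnj3 (-4.94), Kcnmb4 (-2.14), Kcnma1 (-2.10), Kcnh1 (-1.93), Kcnk1 (-1.67) and Kcnc1 (-1.63). Among calcium channel genes they were found for Cacnb2 (-3.05), Cacna1d (-2.49), Cacna1g (-2.07), Cacna1a (-1.96) and Cacng4 (-1.67). Negative values were also found for Trpm5 (-3.62), Ano6 (-1.98), Trpm1 (-1.52), Ano1 (-1.29), Clcn5 (-1.24) and Scn2a (-1.20). Of the genes named here, Kcnip1, Kcnip2, Kcnip4, Kcnc1, Kcnj14, Kcnk1, Cacng4 and Scn11a no longer passed when at least 1 library was left out.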

How the results depend on the processing

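Scaling by library totals alone moved the counts of channel genes to 9 higher in fiber on average (4.72% of all genes were then higher). It also gave 40 lower at E14.5 (41.4% of all genes) and 7 higher at P0.5 (4.23%). Over time it gave 16 falls in fiber (17.4% of all genes), and 2 upward and 37 downward changes of the tissue difference (1.11% and 26.2%). Totals without crystallins gave 4 upward changes (2.17%). Epithelium without E18.5 and P0.5, set as E16.5 against E14.5, had 2 rises and 3 falls. Leaving out each library gave 14 and 35 genes higher and lower on average, 15 to 16 and 25 to 27 at E14.5, 13 to 16 and 31 to 33 for E16.5, 11 and 36 to 37 for the E18.5 stage, and 12 to 13 and 35 to 37 at P0.5. Over time it gave 23 to 24 rises and 5 to 6 falls in epithelium and 5 to 8 rises and 2 to 3 falls in fiber, where 2 falls were left without P0.5 fiber replicate 1. The tissue difference changed for 5 to 7 upward and 16 to 20 downward.

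Averaged log2 differences that reversed with totals alone were Scn8a -0.053, Scn2a -0.10, Cacna1d -0.68, Clcn3 -1.11, Clcn7 -0.74, Kcna3 -0.75 and Piezo2 -1.135, and without crystallins Cacna1d -0.15, Clcn3 -0.58, Clcn7 -0.21, Kcna3 -0.23 and Piezo2 -0.60. Without E18.5 and P0.5, Piezo2 averaged -0.88, and in epithelium Ano6 (-0.38), Clcn5 (-0.45), Kcnma1 (-0.57), Kcnq5 (-0.64) and Trpm1 (-0.051) reversed. Without E14.5 and E16.5, Cacna1d averaged -0.51 and Clcn3 -0.072. The cause was not tested beyond the construction of each setting.

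The fit with a replicate block gave the same counts (14 and 35, 23 and 6, 6 and 4, 7 and 20). Same-numbered libraries deviated together weakly, with correlations of -0.235 to 0.221 over 84 pairs, of which 7 exceeded 0.1. The 12 same-stage pairs of fiber and epithelium gave -0.066 to 0.221, and 3 exceeded 0.1. At the same stage, 13 of 24 libraries correlated best with their own number among 3. These 24 matches are not independent, since each pair of libraries enters in both directions, and no chance distribution was computed. These values do not decide whether the numbers are pairs, and the main fit did not pair them. Of 123 named values, 122 kept direction and call in DESeq2 and 123 without the filter. Genes under about 10 counts in fiber, such as Kcnip4, Kcnj13 and Kcne3, are limited by depth. The fit restricted to the groups compared is identical to the full fit for the averaged comparison.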
